A study of Arabidopsis thaliana with 16 samples.

Results

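The MYB transcription factor genes described here were all genes of the deposited expression table whose name is MYB followed only by digits, 84 of its 33048 genes. A value of 1 FPKM (fragments scaled to transcript length and library size) or more was reached by 54 of them in at least 1 library, and the other 30 stayed below 1 FPKM in every library. The 50 members that reached 1 FPKM in at least 2 libraries were tested between genotypes. A further 31 genes whose names are written AtMYB or ATMYB with digits are not members under this rule.

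Most genes of this family in Arabidopsis encode R2R3-MYB proteins, in which a pair of helix-turn-helix MYB repeats binds DNA. Many act with bHLH partners and switch on whole pathways of specialised metabolism, such as anthocyanins, flavonols and glucosinolates, while others control cuticle wax, suberin, secondary walls, stomata, stamens or stress responses. Because their pathways are used in particular tissues or under stress, many MYB genes are kept silent in seedlings, and Polycomb repression through trimethylation of histone H3 at lysine 27 (H3K27me3) is a known means of keeping developmental and stress regulators silent.

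The study asked which genes the BAH–PHD–CPL2 complex (BPC) keeps repressed, and set its mutants beside mutants of the Polycomb pathway. The mutants of the complex were *aipp3-1*, in the BAH-domain reader of H3K27me3, *cpl2-2*, in a phosphatase of RNA polymerase II, the double mutant *aipp2-1/paipp2-1*, in both PHD-finger proteins, and its single mutants *aipp2-1* and *paipp2-1*. The Polycomb mutants were *clf-81*, in the H3K27 methyltransferase CLF, and *lhp1-3*, in the H3K27me3 reader LHP1, and the wild type was Col-0. The *aipp2-1*, *aipp3-1* and *cpl2-2* alleles are T-DNA insertions and *paipp2-1* was made by CRISPR/Cas9. Each mutated gene is represented by 1 allele, and the labels give Col-0 as the background of every library. All groups were whole seedlings aged 12 days, grown at 23 °C with 16 h of light and 8 h of dark, with 2 libraries for each of the 8 genotypes. The labels number the 2 libraries of a genotype but do not say that they came from separate cultures, so p-values measure the spread between these libraries, which may be technical.

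The 16 libraries held 19181409 to 27165330 fragments, as the steps between low FPKM values show. Transcript of the mutated gene fell in *aipp3-1*, with 5.99 and 4.84 FPKM of *AIPP3* against 22.76 and 23.57 FPKM in Col-0, and in *cpl2-2*, with 6.01 and 6.12 FPKM of *CPL2* against 15.3 and 14.06 FPKM in Col-0. It was not called in *clf-81* (7.05 and 8.11 FPKM of *CLF*, against 9.94 and 9.98 FPKM in Col-0) or *lhp1-3* (6.29 and 6.45 FPKM of *LHP1*, against 8.94 and 10.24 FPKM in Col-0). *AIPP2* fell in the double mutant, with 1.38 and 1.36 FPKM against 5.24 and 5.44 FPKM in Col-0, and was not called in *aipp2-1*, with 3.67 and 4.21 FPKM. *PAIPP2* was called neither in the double mutant (9.28 and 6.62 FPKM) nor in *paipp2-1* (7.82 and 6.63 FPKM), against 10.81 and 11.05 FPKM in Col-0. The *aipp2-1/paipp2-1* replicate 1 library stood apart. Its Pearson correlation with replicate 2 across tested genes was 0.942, against 0.987 to 0.992 within the other genotypes, and 23 of the 50 tested MYB genes had their highest value of all 16 libraries in it. The leaf marker *LHCB2.1* was at 210 to 794 FPKM, while *RBCS1A* was listed at 0.2 to 0.43 FPKM and *CAB1* at 0 to 0.55 FPKM in every library, so near-identical gene copies may not be resolved in these values.

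FPKM is scaled to transcript length, so levels of different MYB genes can be set side by side. In Col-0, 7 members had a mean above 10 FPKM, 33 lay between 1 and 10 FPKM and 44 lay below 1 FPKM. The 5 highest were *MYB28* at 34.57 and 39.78 FPKM, *MYB44* at 32.8 and 37.78, *MYB73* at 25.49 and 25.71, *MYB4* at 18.32 and 19.67 and *MYB34* at 15.66 and 16.2. *MYB28* and *MYB44* overlapped in their libraries, as no other neighbours in this order did. These 5 belong to 4 roles, namely aliphatic glucosinolate synthesis (*MYB28*), stress and hormone response (*MYB44* and *MYB73*), repression of phenylpropanoid synthesis (*MYB4*) and indolic glucosinolate synthesis (*MYB34*).

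Differences between genotypes were tested with limma on log2(FPKM + 0.5), a scale that understates the change of low genes, and a gene was called (an up-DEG or down-DEG) at a Benjamini-Hochberg adjusted p under 0.05 over all 19895 tested genes and a change of at least 2-fold. In *aipp3-1*, 5 of the 50 tested MYB genes were up-DEGs (10%), against 3.14% of all tested genes, and 0 were down-DEGs, against 0.251%. In *cpl2-2*, 2 were up-DEGs (4.0%, against 2.71% of all tested genes) and 0 were down-DEGs (0.332% of all). In *aipp2-1/paipp2-1*, 6 were up-DEGs (12.0%, against 6.44%) and 0 were down-DEGs (1.28% of all). The upward share of the MYB genes was therefore above that of all genes in *aipp3-1* and *aipp2-1/paipp2-1* and close to it in *cpl2-2*, with few genes behind each share. The fit shares a single spread across genotypes, but the *aipp2-1/paipp2-1* replicates differed more than others. Their median log2 difference over the tested members was 0.57, against 0.14 to 0.21 within the other genotypes. Fitted with only the genotypes compared, *MYB62* alone kept its call in *aipp2-1/paipp2-1*.

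In *clf-81*, 10 of the 50 were up-DEGs (20%, against 5.98% of all tested genes) and 2 were down-DEGs (4.0%, against 2.55%). In *lhp1-3*, 2 were up-DEGs (4.0%, against 2.8%) and 0 were down-DEGs (1.82% of all). In the single mutants no member was called by limma, neither in *aipp2-1* (0.00503% of all genes higher and 0% lower) nor in *paipp2-1* (0.131% higher and 0.0352% lower). At an unadjusted p under 0.05, 3 members were higher in *aipp2-1* (2.4% of all tested genes) and 0 lower (1.25% of all), and in *paipp2-1* 6 were higher (6.37% of all) and 2 lower (4.26% of all). All these comparisons share the same 2 Col-0 libraries.

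The median log2 difference over the 50 tested members was 0.25 in *aipp3-1* and 0.23 in *aipp2-1/paipp2-1*, against 0.07 and 0.05 over all tested genes. In *cpl2-2* it was 0.06 against 0.01, in *clf-81* -0.03 against -0.06, and in *lhp1-3* -0.04 against -0.01. The members of *clf-81* thus moved as a few genes with large differences and not as a shift of the whole family. In all, 16 members were called in at least 1 mutant, 14 of them only ever higher and 2 only lower, and 5 were called in 2 or more mutants. The matching shares of all tested genes were not counted, and the mutants share their Col-0 libraries. Whether these totals are unusual for the family was therefore not tested.

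**Figure D1:**
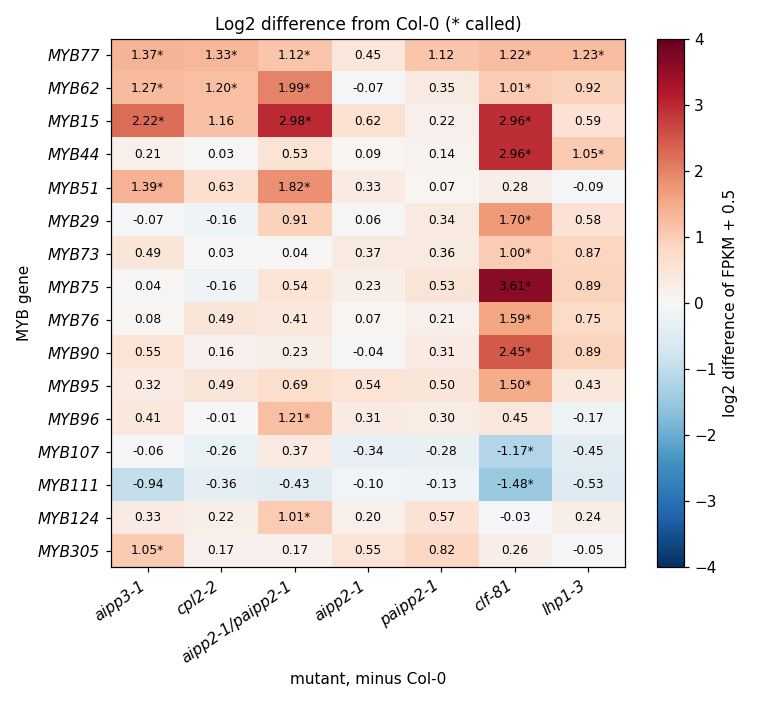
Log2 difference of FPKM + 0.5 (colour and printed value) between each of the 7 mutants (columns) and Col-0 for the 16 MYB genes called in at least 1 mutant (rows), with a star where the gene was called. *MYB77* carries 5 stars, *MYB62* carries 4 and *MYB15* carries 3, the *clf-81* column carries 12, and the *aipp2-1* and *paipp2-1* columns carry none.

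*MYB44*, *MYB73* and *MYB77* encode related R2R3 proteins of the same subgroup, known for roles in abscisic acid, auxin and salt stress responses. They were the 3 members among the 84 whose longest RefSeq transcript has a single exon, while 52 members have 3 exons. *MYB44* (AT5G67300, chr5:26854022-26856006, plus strand) had 281.75 and 274.39 FPKM in *clf-81* and 74.61 and 72.4 FPKM in *lhp1-3*, against 32.8 and 37.78 FPKM in Col-0. This was a log2 fold change (with its standard error, SE) of 2.96 in *clf-81* (± 0.09 SE, limma adjusted p = 2.6e-08) and of 1.05 in *lhp1-3* (± 0.09 SE, limma adjusted p = 3.2e-05), and the libraries of the 3 genotypes did not overlap. Leaving out Col-0 replicate 1 brought the *lhp1-3* difference below 2-fold (0.95, adjusted p = 0.00072). In the BPC mutants *MYB44* lay close to wild type, at 40.66 and 41.19 FPKM for *aipp3-1*, 34.7 and 37.36 FPKM for *cpl2-2* and 54.71 and 47.93 FPKM for the double mutant, against the same 32.8 and 37.78 FPKM in Col-0. Its log2 difference in *aipp2-1/paipp2-1* was 0.53 with an adjusted p of 0.0023, below the 2-fold minimum.

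*MYB77* (AT3G50060, chr3:18557607-18559326, minus strand) was the only member called in 5 mutants. Its libraries held 23.35 and 14.42 FPKM for *aipp3-1*, 20.13 and 15.95 FPKM for *cpl2-2*, 12.7 and 18.72 FPKM for *aipp2-1/paipp2-1*, 19.44 and 14.04 FPKM for *clf-81* and 16.83 and 16.52 FPKM for *lhp1-3*, against 6.88 and 6.74 FPKM in Col-0. Every mutant library lay above both wild-type libraries, also the 8.88 and 10.08 FPKM of *aipp2-1* and the 13.87 and 16.96 FPKM of *paipp2-1*. The log2 fold changes of the 5 calls ran from 1.12 in *aipp2-1/paipp2-1* to 1.37 in *aipp3-1* (± 0.24 SE each, limma adjusted p = 0.0027 to 0.0063). In *paipp2-1* the difference was 1.12 with an adjusted p of 0.077 and was not called. Leaving out Col-0 replicate 1 (log2 difference 1.35, adjusted p = 0.051) or *cpl2-2* replicate 1 (1.17, adjusted p = 0.052) ended the call in *cpl2-2*. Leaving out *aipp2-1/paipp2-1* replicate 2 (0.85) or *clf-81* replicate 1 (0.99) brought the difference in that mutant below 2-fold.

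*MYB73* (AT4G37260, chr4:17540490-17541799, plus strand) had 54.91 and 48.81 FPKM in *clf-81* and 48.2 and 46.03 in *lhp1-3*, against 25.49 and 25.71 FPKM in Col-0. It was called in *clf-81*, just at the fold minimum (log2 fold change 1.00 ± 0.12 SE, limma adjusted p = 0.00011), and not in *lhp1-3*, where the change was 0.87 with an adjusted p of 0.00059. The call ended without Col-0 replicate 1 (log2 difference 1.00, just below the minimum) or *clf-81* replicate 1 (0.92). The bases before the 3 genes' starts are printed because the genes were all up-DEGs in *clf-81*. They come from the RefSeq annotation of TAIR10.1, 250 bases on the gene's strand up to the base before its start, at chr5:26853772-26854021 (plus), chr4:17540240-17540489 (plus) and chr3:18559327-18559576 (minus). Capitals mark GAGAGA on either strand, the GA repeat known from Polycomb response elements of plants.
MYB44: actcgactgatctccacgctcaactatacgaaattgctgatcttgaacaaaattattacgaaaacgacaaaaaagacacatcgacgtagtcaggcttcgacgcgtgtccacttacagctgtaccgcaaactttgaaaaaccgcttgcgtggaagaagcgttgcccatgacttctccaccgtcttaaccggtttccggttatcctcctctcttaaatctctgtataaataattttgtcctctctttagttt
MYB73: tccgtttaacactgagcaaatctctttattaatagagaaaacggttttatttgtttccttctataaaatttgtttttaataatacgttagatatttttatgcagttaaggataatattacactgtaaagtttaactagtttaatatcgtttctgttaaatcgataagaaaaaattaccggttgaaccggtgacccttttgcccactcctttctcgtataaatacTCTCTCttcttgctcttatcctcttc
MYB77: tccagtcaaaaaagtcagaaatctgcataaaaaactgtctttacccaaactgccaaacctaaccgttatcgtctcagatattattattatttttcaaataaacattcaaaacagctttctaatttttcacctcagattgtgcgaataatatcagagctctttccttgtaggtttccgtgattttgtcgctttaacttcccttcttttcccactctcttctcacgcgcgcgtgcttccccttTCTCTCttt
GAGAGA was found in the windows of *MYB73* and *MYB77* and not in that of *MYB44*, which had the larger change. It was in 20.6% of 27443 windows of protein-coding genes and in 17 of the 84 member windows (20.2%). The telobox AAACCCTA, searched on both strands, was in 3 member windows (3.57%), against 4.49% of all, and in none of the 3 shown.

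**Figure D2:**
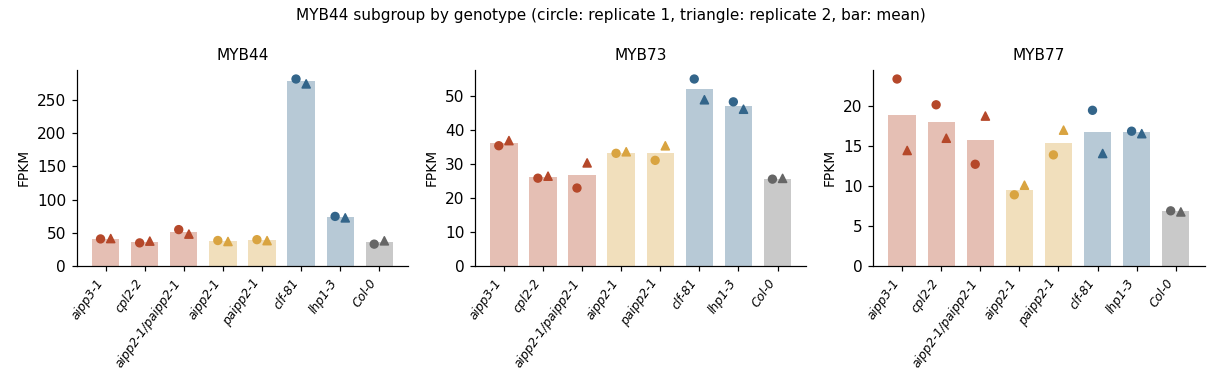
FPKM of *MYB44*, *MYB73* and *MYB77* (panels, linear axes from 0) in 8 genotypes, with a circle for replicate 1, a triangle for replicate 2 and a bar for their mean; red marks BPC mutants, yellow single PHD mutants, blue *clf-81* and *lhp1-3* and grey Col-0. *MYB44* reaches 281.75 FPKM in *clf-81* and at most 54.71 FPKM in the BPC mutants, while *MYB77* lies above its Col-0 values of 6.88 and 6.74 FPKM in every mutant.

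*MYB75*, *MYB90* and *MYB113* encode activators that, with bHLH and WD40 partners, switch on the late genes of anthocyanin synthesis, and *MYB114* is a related gene. *MYB75* (AT1G56650, chr1:21233555-21235292, minus strand) had 7.43 and 9.05 FPKM in *clf-81* and 0.96 and 0.68 in *lhp1-3*, against 0.08 and 0.37 FPKM in Col-0. *MYB90* (AT1G66390, chr1:24763941-24765541, plus strand) had 3.47 and 2.87 FPKM in *clf-81* and 0.77 and 0.71 in *lhp1-3*, against 0.14 and 0.2 FPKM in Col-0. Both were called in *clf-81* alone, with log2 fold changes of 3.61 for *MYB75* (± 0.41 SE, limma adjusted p = 6.4e-05) and 2.45 for *MYB90* (± 0.21 SE, limma adjusted p = 1.1e-05). In *lhp1-3* both had a log2 difference of 0.89, with an adjusted p of 0.16 for *MYB75* and 0.015 for *MYB90*, and were not called, although both *lhp1-3* libraries lay above both Col-0 libraries for each gene. A level of 3 fragments, the floor used here, is worth 0.127 FPKM for *MYB75* and 0.14 FPKM for *MYB90* in the shallower Col-0 library, so the wild-type levels lay near that floor.

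*MYB113*, *MYB114* and *MYB90* lie next to each other on chromosome 1, with 2536 and 4987 bases between them. *MYB113* had 0.97 and 1.75 FPKM in *clf-81*, against 0.05 and 0 FPKM in Col-0, and at most 0.19 FPKM in any other library. The RefSeq coding sequence of *MYB114*, 333 bases, is the shortest of all members, against 741 to 750 bases in *MYB75*, *MYB90* and *MYB113*. Whether its shorter product acts as theirs do was not tested. *MYB114* had 0.29 and 0.47 FPKM in *clf-81*, was listed at 0 in both Col-0 libraries and reached at most 0.14 FPKM elsewhere. *MYB113* and *MYB114* were under the filter, so they have no test, and they were singled out after their values were seen. Since the 3 genes are close paralogs, reads could be split between them, and whether part of the signal of the low pair comes from *MYB90* was not tested. The remaining tested gene of this group, *MYB112*, which promotes anthocyanin accumulation under salt and high light, had 2.43 and 2.72 FPKM in *clf-81*, against 1.33 and 1.45 FPKM in Col-0, and was not called (log2 difference 0.70, adjusted p = 0.044).

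Several MYB mRNAs carry sites of microRNAs that are known to regulate MYB genes. Sites are shown for the anthocyanin regulators *MYB75* and *MYB113* and the flavonol regulators *MYB111* and *MYB12*. Those of *MYB82* and *MYB20*, which have other roles, are shown beside them. The flavonol regulator *MYB11* also had a miR858a site, with 4 mismatches, which is not printed. Within at most 4 mismatches, sites of miR828 were found in 10 of the 84 members and in 17 of 27438 protein-coding genes, and sites of miR858a in 12 members and 29 of 27440 genes. The member share was 11.9% for miR828 and 14.3% for miR858a, against 0.062% and 0.106% of all genes, which include the members. Both microRNAs were chosen because they are known to regulate MYB genes, and related members can share a site sequence. This contrast is therefore no test of the family. The mature sequences are those at chr4:13847020-13847041 (plus) and chr1:26773695-26773715 (minus) of TAIR10.1 in RefSeq, with the seed (bases 2 to 8) in capitals. In the sites, read from the mRNA strand, capitals mark bases that differ from the exact complement of the microRNA. These are the mismatches counted here, and they include G:U pairs.
miR828: uCUUGCUUaaaugaguauucca
MYB75: tggaaCactcatCtGagTaaga
MYB113: tggaaCactcatttGagTaaga
MYB82: tggaatactcatttGaAcaaga
miR858a: uUUCGUUGucuguucgaccuu
MYB111: CaggAAgaacagacaacgaaa
MYB12: CaggGAgaacagacaacgaaa
MYB20: CaggAAgaacagacaacgaaa
The sites of *MYB75* (chr1:21234130-21234151, minus), *MYB113* (chr1:24754173-24754194, plus) and *MYB82* (chr5:21343460-21343481, minus) had 4, 3 and 2 mismatches to miR828. Those of *MYB111* (chr5:19999866-19999886, minus), *MYB12* (chr2:19478416-19478436, plus) and *MYB20* (chr1:24677687-24677707, plus) had 3 mismatches each to miR858a, and all 6 lie in coding sequence. Of the genes with a printed miR828 site, *MYB75* rose in *clf-81*, and *MYB113* was also higher there than in Col-0 but had no test. *MYB82*, with 1.04 and 0.83 FPKM in *clf-81* against 1.17 and 1.16 FPKM in Col-0, was not called. The other members with a miR828 site are not compared here. *MYB111*, with a miR858a site, fell in *clf-81*. Whether the microRNAs had a part in these differences was not tested.

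The late anthocyanin genes were called in both Polycomb mutants. All 6 genes of that list (*DFR*, *LDOX*, *UGT79B1*, *UGT75C1*, *5MAT* and *TT19*) were up-DEGs in *clf-81*, with a median log2 difference of 2.65, and all 6 were up-DEGs in *lhp1-3*, with a median of 1.19. *LDOX*, which makes anthocyanidins, had 43.47 and 59.1 FPKM in *clf-81* and 17.23 and 17.41 in *lhp1-3*, against 3.41 and 6.84 FPKM in Col-0. *DFR*, the enzyme before it, had 61.02 and 68.68 FPKM in *clf-81* and 20.5 and 21.64 in *lhp1-3*, against 5.88 and 12.64 FPKM in Col-0. The BPC mutants differed among themselves. In *aipp3-1* none of the 6 was called, in *cpl2-2* 3 were down-DEGs, among them *DFR* with 2.8 and 3.67 FPKM against 5.88 and 12.64 FPKM in Col-0 (log2 fold change -1.30, limma adjusted p = 0.013), and in *aipp2-1/paipp2-1* 2 were up-DEGs, among them *LDOX* with 17.12 and 12.98 FPKM. In *cpl2-2*, neither *MYB75* (0.08 and 0.2 FPKM, against 0.08 and 0.37 FPKM in Col-0) nor *MYB90* (0.23 and 0.27 FPKM, against 0.14 and 0.2 FPKM in Col-0) was called.

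Floral markers rose most in *clf-81* and *lhp1-3*. Of 7 floral organ genes 6 were called higher in *clf-81* and 7 in *lhp1-3*, and their summed level was 153 and 146 FPKM in *clf-81* and 133 and 131 in *lhp1-3*, against 2.9 and 4.14 FPKM in Col-0. Smaller rises were seen in the BPC mutants. The double mutant had 2 of the 7 genes called higher, with a sum of 8.49 and 9.17 FPKM. For *cpl2-2* the count was 1 (sum 11.79 and 9.76 FPKM), and *aipp3-1* likewise had 1 (6.78 and 6.73 FPKM). The part of these floral genes in the MYB results was not tested. In whole seedlings a larger share of a cell type cannot be told apart from more RNA per cell. The stamen regulators *MYB21* and *MYB24* were listed at 0.27 and 0.27 FPKM and at 0.29 and 0.41 FPKM in *clf-81*, against 0 in both Col-0 libraries, and *MYB21* was at 0.07 and 0.13 FPKM in *lhp1-3*.

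Flavonol synthesis is driven by *MYB11*, *MYB12* and *MYB111*. *MYB111* (AT5G49330) was the larger of the 2 down-DEGs of *clf-81*, at 0.86 and 1.31 FPKM, against 3.55 and 4.25 FPKM in Col-0 (log2 fold change -1.48 ± 0.22 SE, limma adjusted p = 0.00041). It was also low in *aipp3-1*, at 1.9 and 1.67 FPKM, where the log2 difference of -0.94 (adjusted p = 0.020) fell just short of 2-fold. The median-ratio and quantile scalings and a pseudocount of 0.1 each brought it past that minimum, as sole down-DEG of the family in *aipp3-1*. *MYB12* did not share this, with 3.76 and 3.72 FPKM in *clf-81*, against 4.46 and 3.64 FPKM in Col-0, and *MYB11* stayed at or below 0.43 FPKM in every library. Of the 6 tested early flavonoid genes, 4 (*TT4*, *TT5*, *TT7* and *FLS1*) were nevertheless up-DEGs in *clf-81* and the same 4 in *lhp1-3*. *FLS1*, the flavonol synthase, had 83.36 and 74.08 FPKM in *clf-81* and 129.42 and 121.36 in *lhp1-3*, against 22.43 and 26.4 FPKM in Col-0. The direction of *MYB111* and that of these genes were thus opposite in *clf-81*.

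**Figure D3:**
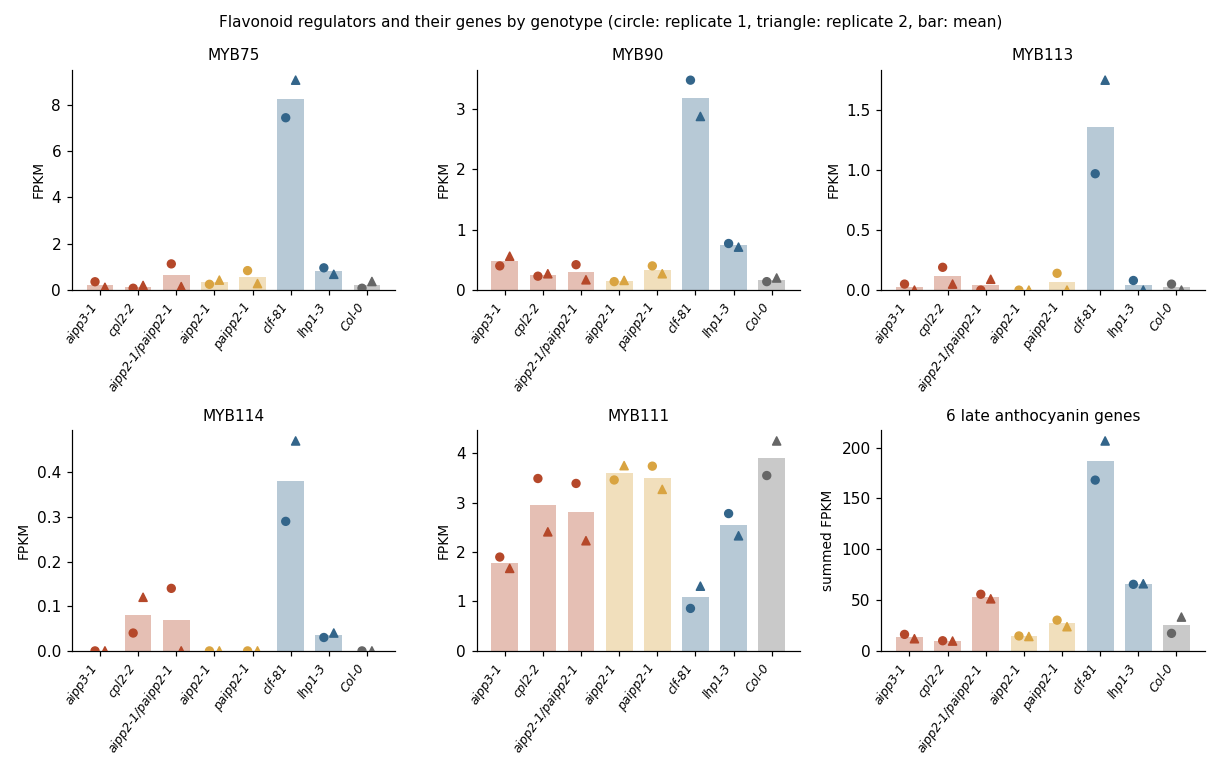
FPKM of *MYB75*, *MYB90*, *MYB113*, *MYB114* and *MYB111*, and the summed FPKM of 6 late anthocyanin genes (panels, linear axes from 0), in 8 genotypes, with circles for replicate 1, triangles for replicate 2, bars for means and the colours of the plot of the *MYB44* subgroup. *MYB75* (7.43 and 9.05 FPKM), *MYB90*, *MYB113* and *MYB114* peak in *clf-81*, and *MYB111* is lowest there. The summed genes are high in *clf-81* and, at a lower level, in *lhp1-3*.

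Aliphatic glucosinolates, defence compounds made from methionine, are controlled by *MYB28*, *MYB29* and *MYB76*. *MYB28*, the member with the highest mean in Col-0, did not rise in any mutant, with 38.54 and 35.35 FPKM in *clf-81*, against 34.57 and 39.78 FPKM in Col-0 (log2 difference -0.01, standard error 0.19). *MYB29* (AT5G07690) had 6.41 and 7.75 FPKM in *clf-81*, against 1.49 and 2.2 FPKM in Col-0 (log2 fold change 1.70 ± 0.25 SE, limma adjusted p = 0.00042). *MYB76* (AT5G07700) had 1.32 and 1.26 FPKM in *clf-81*, against 0.21 and 0 FPKM in Col-0 (log2 fold change 1.59 ± 0.26 SE, limma adjusted p = 0.00082). These 2 genes are neighbours on chromosome 5, with 1442 bases between them, and their reads may not be fully separated. In *lhp1-3* neither was called, *MYB29* with 3.3 and 2.68 FPKM and *MYB76* with 0.55 and 0.46 FPKM, although every *lhp1-3* value lay above both Col-0 values.

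The genes of aliphatic glucosinolate synthesis were up-DEGs in both Polycomb mutants. Of 10 tested, 8 were called higher in *clf-81* (median log2 difference 1.80) and 7 in *lhp1-3* (1.26), against 0 in *aipp3-1* and *cpl2-2* and 1 in the double mutant. *CYP79F1*, which starts the conversion of chain-elongated methionine, had 63.65 and 60.23 FPKM in *clf-81* and 28 and 26.23 in *lhp1-3*, against 1.97 and 3.98 FPKM in Col-0 (log2 fold changes 4.23 and 3.05, limma adjusted p = 1.2e-06 and 3.2e-05). *MAM1*, the enzyme of chain elongation, had 326.64 and 329.02 FPKM in *clf-81* and 166.69 and 165.32 in *lhp1-3*, against 40.06 and 46.84 FPKM in Col-0. In *aipp2-1/paipp2-1* the gene called was *CYP79F1*, with 10 and 10.76 FPKM, and *MYB29* there, at 5.24 and 2.81 FPKM, had a log2 difference of 0.91 (adjusted p = 0.022), short of 2-fold. *MYB28* and *MYB29* share this pathway, but the 2 differed in *clf-81* in that *MYB29* was called and *MYB28* was within the spread of wild type.

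Indolic glucosinolates, made from tryptophan, are controlled by *MYB34*, *MYB51* and *MYB122*. *MYB51* (AT1G18570) was called in BPC mutants, with 30.94 and 20 FPKM in *aipp3-1* and 55.99 and 20.22 in *aipp2-1/paipp2-1*, against 8.99 and 9.4 FPKM in Col-0. In *cpl2-2* it had 13.22 and 15.97 FPKM, above both Col-0 libraries but not called (log2 difference 0.63, adjusted p = 0.39). In *clf-81* it had 11.15 and 11.36 FPKM and in *lhp1-3* 8.51 and 8.66 FPKM, close to wild type. The log2 fold change was 1.39 in *aipp3-1* (± 0.36 SE, limma adjusted p = 0.033) and 1.82 in *aipp2-1/paipp2-1* (limma adjusted p = 0.0043). With only the genotypes compared in the fit, the call in *aipp2-1/paipp2-1* was lost (limma adjusted p = 0.18). Leaving out any of the libraries of *aipp3-1* or Col-0 ended the call in *aipp3-1* (log2 differences 1.08 to 1.70, adjusted p = 0.065 to 0.20), while without *aipp2-1/paipp2-1* replicate 1 the call in the double mutant held at 1.1 (adjusted p = 0.0083).

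The other 2 genes of this role were not called. *MYB34* had 9.45 and 11.36 FPKM in *aipp2-1/paipp2-1*, below the 15.66 and 16.2 FPKM of Col-0 (log2 difference -0.60, adjusted p = 0.0027, under 2-fold), and *MYB122* had 1.37 and 0.84 FPKM there and 1.03 and 1.16 FPKM in *aipp3-1*, against 0.24 and 0.39 FPKM in Col-0, with log2 differences of 0.96 and 0.97 that were not called. Among 9 indolic synthesis genes 7 were called higher in *clf-81*, such as *CYP79B2* with 86.9 and 101.24 FPKM, against 31.38 and 36.55 FPKM in Col-0, and 0 in *lhp1-3*. In *aipp3-1* and in *aipp2-1/paipp2-1* 1 of the 9 was called, and it was *CYP81F2* in both. This enzyme, which modifies indolic glucosinolates in defence, had 13.68 and 9.56 FPKM in *aipp3-1* and 38.75 and 22.64 in *aipp2-1/paipp2-1*, against 3.91 and 4.63 FPKM in Col-0 (log2 fold changes 1.33 and 2.66, limma adjusted p = 0.0039 and 2.0e-05). In *clf-81*, where 7 of the list were called, none of the 3 regulators was.

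**Figure D4:**
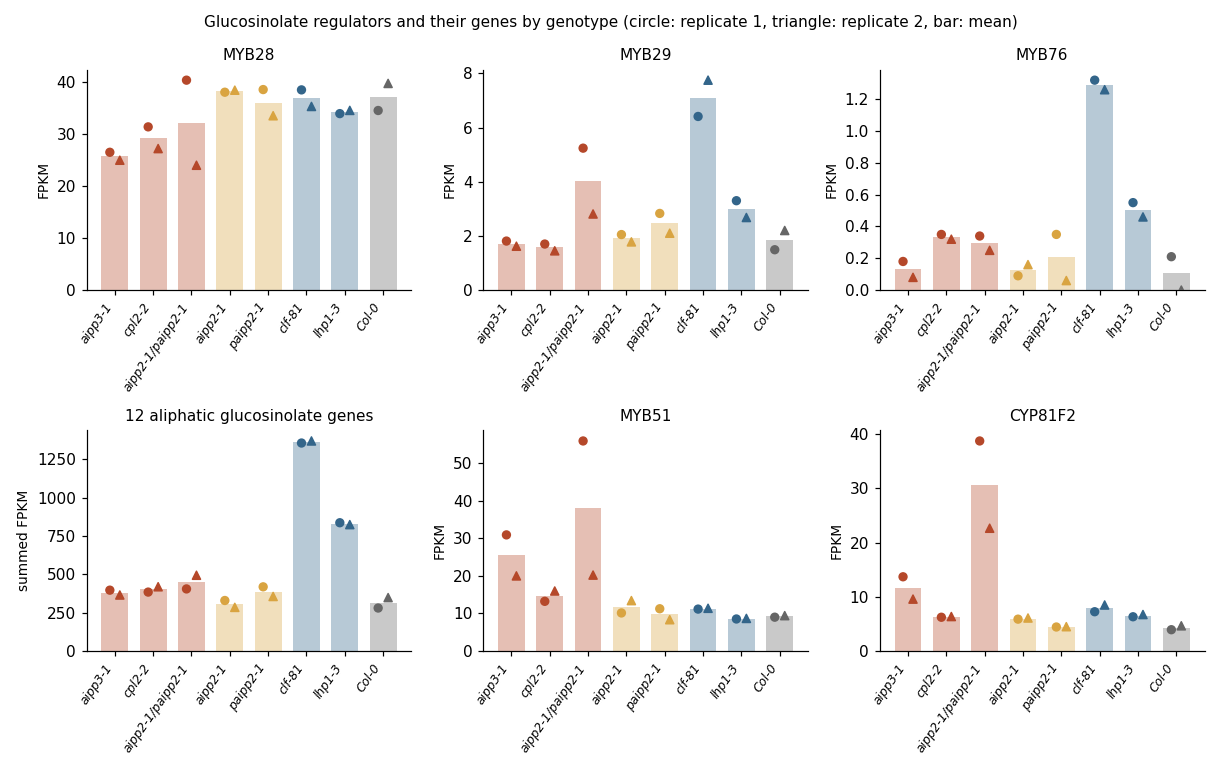
FPKM of *MYB28*, *MYB29*, *MYB76*, *MYB51* and *CYP81F2*, and the summed FPKM of 12 aliphatic glucosinolate genes (panels, linear axes from 0), in 8 genotypes, with circles for replicate 1, triangles for replicate 2, bars for means and the colours of the plot of the *MYB44* subgroup. *MYB29* and *MYB76* are highest in *clf-81*, *MYB28* shows no such peak, and *MYB51* and *CYP81F2* are highest in *aipp2-1/paipp2-1* and *aipp3-1*.

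*MYB15* and *MYB14* are stress regulators of one subgroup, and *MYB15* is known for cold response and for lignin made in immunity. *MYB15* (AT3G23250, chr3:8309209-8310910) had 9.36 and 2.44 FPKM in *aipp3-1*, 13.32 and 5.52 FPKM in the double mutant and 7.76 and 9.28 FPKM in *clf-81*, against 0.33 and 1.1 FPKM in Col-0. The log2 fold changes were 2.22 in *aipp3-1*, 2.98 in the double mutant and 2.96 in *clf-81* (± 0.55 SE each, limma adjusted p = 0.027, 0.0027 and 0.0019). With only the genotypes compared in the fit, the calls in *aipp3-1* and in the double mutant (limma adjusted p = 0.083) were lost. No call was made for *MYB15* in *cpl2-2*, with 1.67 and 2.57 FPKM (log2 difference 1.16, adjusted p = 0.27), or in *lhp1-3*, with 1.02 and 1.47 FPKM (0.59, adjusted p = 0.51). In *aipp3-1* the call ended without Col-0 replicate 1 (1.75, adjusted p = 0.18) or *aipp3-1* replicate 1 (1.35, adjusted p = 0.19), while in *aipp2-1/paipp2-1* it held without replicate 1 (2.39, adjusted p = 0.017). *MYB14* was not called in any mutant, with 2.61 and 1.25 FPKM in *aipp2-1/paipp2-1*, against 0.56 and 0.94 FPKM in Col-0.

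*MYB62* (AT1G68320, chr1:25603676-25605181), which is known from phosphate starvation and gibberellin responses, was a low gene called in all 3 BPC mutants and in *clf-81*. It had 1.69 and 0.98 FPKM in *aipp3-1*, 1.16 and 1.25 FPKM for *cpl2-2*, 2.64 and 2.27 FPKM in the double mutant and 1.0 and 0.99 FPKM for *clf-81*, against 0.21 and 0.28 FPKM in Col-0. In *lhp1-3* it had 0.89 and 0.92 FPKM, a log2 difference of 0.92 (adjusted p = 0.010) that missed the 2-fold minimum. The single mutants lay nearer to wild type, with 0.21 and 0.21 FPKM in *aipp2-1* and 0.54 and 0.37 FPKM in *paipp2-1*. The log2 fold change was 1.99 in *aipp2-1/paipp2-1* (± 0.21 SE, limma adjusted p = 7.8e-05) and 1.90 there without replicate 1. The values of 1.27 in *aipp3-1*, 1.20 in *cpl2-2* and 1.01 in *clf-81* fell below 2-fold with a pseudocount of 1, at 0.89, 0.82 and 0.68. They were also lost without *aipp3-1* replicate 1 (0.99) or, in *cpl2-2* and *clf-81*, without Col-0 replicate 1 (1.13 with adjusted p = 0.054, and 0.94).

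Another 2 calls in *aipp2-1/paipp2-1* rested on its replicate 1. *MYB96*, an activator of cuticular wax synthesis under drought, had 29.52 and 9.39 FPKM there, against 7.06 and 6.87 FPKM in Col-0 (log2 fold change 1.21 ± 0.40 SE, limma adjusted p = 0.046). *MYB124*, a MYB protein that ends the divisions of the stomatal lineage, had 20.38 and 7.2 FPKM, against 5.27 and 6.4 FPKM in Col-0 (log2 fold change 1.01 ± 0.32 SE, limma adjusted p = 0.042). Without replicate 1 the log2 difference was 0.41 for *MYB96* (adjusted p = 0.31) and 0.29 for *MYB124* (adjusted p = 0.17), and leaving out either Col-0 library also ended both calls, with differences of 1.23 and 1.19 for *MYB96* and 0.88 and 1.14 for *MYB124* (adjusted p = 0.088 to 0.20). Of the other tested genes of the wax list, *MYB94* and *MYB60* also had a higher first library and *MYB30* did not. *MYB94* and *MYB60* had 11.39 and 5.0 FPKM and 18.45 and 7.03 FPKM in *aipp2-1/paipp2-1*, against 6.93 and 5.93 FPKM and 11.75 and 11.51 FPKM in Col-0, and *MYB30* had 13.6 and 14.71 FPKM, against 11.7 and 11.67 FPKM in Col-0. None of these 3 was called. *MYB88*, the paralog of *MYB124*, had 7.32 and 4.11 FPKM in *aipp2-1/paipp2-1*, against 4.14 and 3.54 FPKM in Col-0. Of 7 tested cuticular wax genes 1 was called in *aipp2-1/paipp2-1*, and it fell, *CER2* with 9.55 and 15.26 FPKM against 27.54 and 27.35 FPKM in Col-0.

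Seed maturation transcripts also stood out in the double mutant. All 6 tested genes of a list of 7, such as the storage protein gene *CRA1*, were called higher, and their summed level was 104 and 222 FPKM in *aipp2-1/paipp2-1*, against 0.62 and 0.39 FPKM in Col-0. The sum was 3.63 and 11.1 FPKM in *aipp3-1*, 10.3 and 35.7 FPKM for *cpl2-2*, 54.3 and 10.7 FPKM for *paipp2-1*, and between 0.14 and 2.36 FPKM in *aipp2-1*, *clf-81* and *lhp1-3*. The part of these seed transcripts in the MYB results was not tested.

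**Figure D5:**
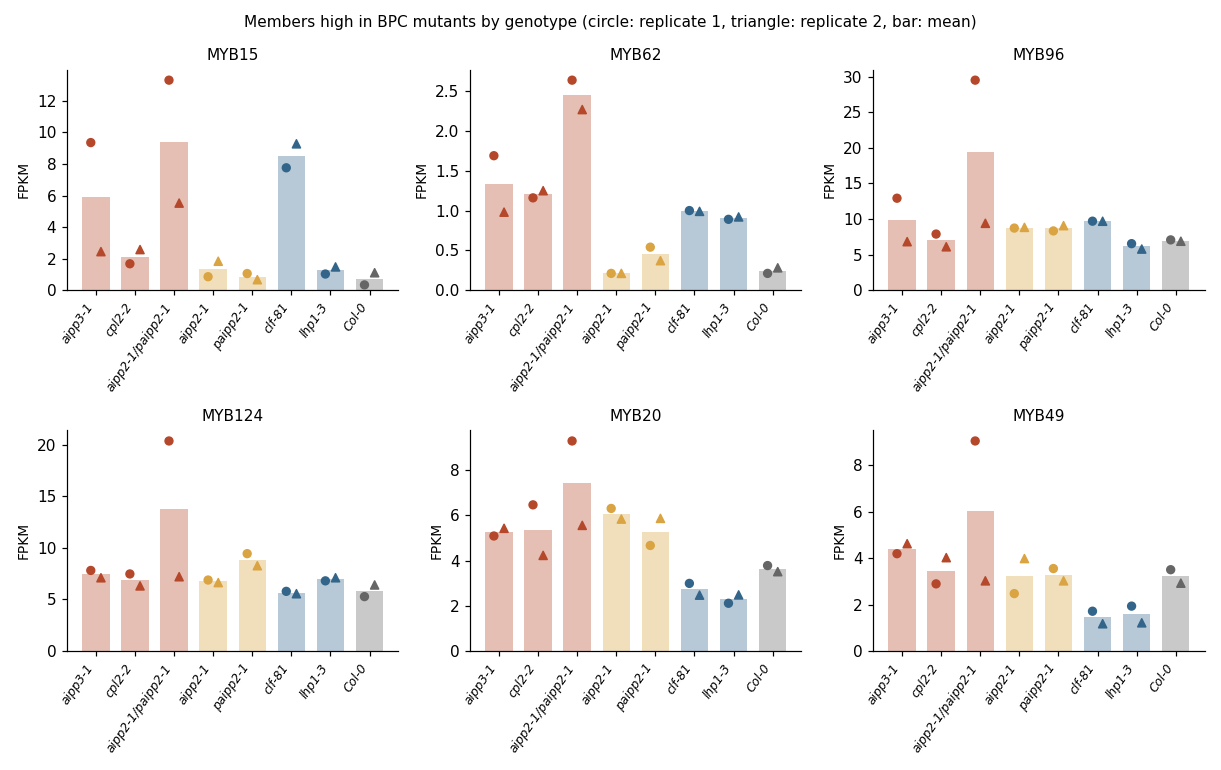
FPKM of *MYB15*, *MYB62*, *MYB96*, *MYB124*, *MYB20* and *MYB49* (panels, linear axes from 0) in 8 genotypes, with circles for replicate 1, triangles for replicate 2, bars for means and the colours of the plot of the *MYB44* subgroup. In *aipp2-1/paipp2-1* replicate 1 lies far above replicate 2 for *MYB96* (29.52 and 9.39 FPKM) and *MYB124* (20.38 and 7.2 FPKM), but not for *MYB62* (2.64 and 2.27 FPKM).

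*MYB107*, a regulator of suberin in the seed coat, was the other down-DEG of *clf-81*, at 0.31 and 0.28 FPKM, against 1.61 and 1.01 FPKM in Col-0 (log2 fold change -1.17 ± 0.30 SE, limma adjusted p = 0.014). The call ended without Col-0 replicate 1 (-0.93, adjusted p = 0.12) or without either *clf-81* library (-1.19 and -1.14, adjusted p = 0.058 and 0.074). *MYB49*, of the same suberin list, had 1.71 and 1.17 FPKM in *clf-81*, against 3.5 and 2.92 FPKM in Col-0 (log2 difference -0.95, adjusted p = 0.087), and *MYB36*, the master regulator of the Casparian strip, had 3.41 and 3.03 FPKM in *clf-81*, against 3.82 and 3.72 FPKM in Col-0. Of 10 tested suberin genes 1 fell in *clf-81*, *FAR1* with 6.77 and 6.97 FPKM against 18.97 and 16.39 FPKM in Col-0, and 2 fell in *aipp2-1/paipp2-1*, *CYP86A1* and *GPAT5*. The 5 tested Casparian strip genes had no call in any mutant against Col-0.

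A further 2 members were called but fall outside the role lists, and they were picked after their values were seen. *MYB95* had 2.32 and 2.94 FPKM in *clf-81*, against 0.46 and 0.77 FPKM in Col-0 (log2 fold change 1.5, limma adjusted p = 0.0018). *MYB305* had 0.73 and 1.31 FPKM in *aipp3-1*, against 0.29 and 0.16 FPKM in Col-0 (log2 fold change 1.05, limma adjusted p = 0.024). The call of *MYB95* held without any of the libraries compared, whereas that of *MYB305* ended without either Col-0 library (1.18 and 0.92, adjusted p = 0.075 and 0.14) or *aipp3-1* replicate 2 (0.77, adjusted p = 0.22).

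Several roles had tested members but no call in any mutant against Col-0. None of 6 phenylpropanoid repressors was called, nor any of 7 tested secondary wall regulators, 2 trichome and root hair regulators, 2 of root growth and the cell cycle, or the GAMYB gene *MYB33*. *MYB4*, the repressor with the highest level, had 13.05 and 13.6 FPKM in *clf-81*, against 18.32 and 19.67 FPKM in Col-0, a log2 difference of -0.50 (adjusted p = 0.023) under the 2-fold minimum. Of the 16 tested secondary wall genes 0 were called in any mutant, and of 6 tested bHLH and WD40 partner genes likewise 0. In the jasmonate and stamen list only *MYB62* was called, and *MYB108* had 0.95 and 1.06 FPKM in *clf-81*, against 0.7 and 1.06 FPKM in Col-0.

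The single PHD mutants were set against the double mutant, since AIPP2 and PAIPP2 are paralogs. Against the mean of *aipp2-1* and *paipp2-1*, 3 members were higher in *aipp2-1/paipp2-1* (5.38% of all tested genes) and 0 lower (1.32% of all). They were *MYB15* (log2 difference 2.56, standard error 0.47, limma adjusted p = 0.0026), *MYB62* (1.84 ± 0.18 SE, limma adjusted p = 4.8e-05) and *MYB51* (1.62 ± 0.31 SE, limma adjusted p = 0.0032). *MYB15* had 13.32 and 5.52 FPKM in the double mutant, against 0.85 and 1.83 FPKM in *aipp2-1* and 1.05 and 0.66 FPKM in *paipp2-1*. *MYB51* had 55.99 and 20.22 FPKM in the double mutant, against 10.12 and 13.41 FPKM in *aipp2-1* and 11.24 and 8.32 FPKM in *paipp2-1*. Without replicate 1 of the double mutant *MYB15* (1.96, adjusted p = 0.028) and *MYB62* (1.75) were still called and *MYB51* was not (0.90, adjusted p = 0.015), and without replicate 2 the count was 10. The share of all tested genes without replicate 2 was not counted. *MYB77* differed by 0.34 (adjusted p = 0.22), and its values in *paipp2-1* overlapped those of the double mutant.

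Between the Polycomb mutants, 6 members were higher in *clf-81* than in *lhp1-3* (3.29% of all tested genes) and 0 were lower (0.89% of all). The differences on the log2 scale were 2.73 for *MYB75*, 2.38 for *MYB15*, 1.91 for *MYB44*, 1.56 for *MYB90*, 1.12 for *MYB29* and 1.07 for *MYB95* (limma adjusted p = 9.8e-07 to 0.023). *MYB44* with 281.75 and 274.39 FPKM in *clf-81*, against 74.61 and 72.4 FPKM in *lhp1-3*, was the clearest of them by its p. *MYB77* did not differ between them (-0.01, standard error 0.24), and *MYB73* differed by 0.13 (standard error 0.12, adjusted p = 0.50). Without *lhp1-3* replicate 2 the count was 3, with *MYB15* (adjusted p = 0.064), *MYB29* (0.99) and *MYB95* (adjusted p = 0.076) lost. *MYB15* and *MYB95* were also lost without *lhp1-3* replicate 1 or either *clf-81* library (adjusted p = 0.059 to 0.17), and *MYB29* without *clf-81* replicate 2 (0.99).

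When the mean of the BPC mutants *cpl2-2*, *aipp3-1* and the double mutant was set against the mean of *clf-81* and *lhp1-3*, 3 members were higher (3.71% of all tested genes) and 3 lower (2.25% of all). The higher ones were *MYB49* (log2 difference 1.28), *MYB51* (1.19) and *MYB20* (1.08), and the lower ones were *MYB75* (-2.11), *MYB44* (-1.75) and *MYB90* (-1.36), with limma adjusted p = 5.7e-09 to 0.0017. *MYB20*, a secondary wall and lignin regulator named after its values were seen, had 4.23 to 9.3 FPKM in the libraries of the 3 BPC mutants and 2.11 to 2.99 in those of the 2 Polycomb mutants, with 3.78 and 3.51 FPKM in Col-0. *MYB49* had 2.89 to 9.05 FPKM in the BPC mutants and 1.17 to 1.93 FPKM in the Polycomb mutants. The groups did not overlap for either gene, and neither was called in any mutant against Col-0. The Col-0 libraries lay between the mutant classes for *MYB20*. For *MYB49* they lay within the range of the BPC mutants and above every library of the Polycomb mutants. Without *aipp2-1/paipp2-1* replicate 1 *MYB51* (0.95) and *MYB20* (0.97) fell below 2-fold, *MYB20* did so too without *cpl2-2* replicate 1 (0.99), and *MYB49* (1.04) did not.

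The 30 members below 1 FPKM in every library reached at most 0.88 FPKM, and 17 of them were at 0 in 8 or more of the 16 libraries. *MYB5*, *MYB22*, *MYB26*, *MYB58*, *MYB89* and *MYB92* were listed at 0 in all 16. At these depths a level of 3 fragments is worth about 0.1 FPKM for most members, so levels under that were not detectable, and this floor covers counting error only. None of the 6 listed members of the embryo and gametophyte role was tested. Between the 30 low members and the 50 tested ones stood 4 that reached 1 FPKM in 1 library, *MYB39*, *MYB87*, *MYB113* and *MYB117*.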

How the data were processed

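mRNA-seq libraries of 12-day-old seedlings of 8 genotypes were analysed, with 2 libraries each. Reads were trimmed by the authors (SeqPrep, then Sickle). The authors deposited FPKM per gene, to 2 decimals, for 33048 genes. The submitters' processing notes name TopHat, Bowtie, RSEM and edgeR, and versions, the genome build and the use of strand are not given in the sources used here. Each column was assigned to a genotype from its name in the sample labels. The members and the gene lists were chosen with earlier results of these data known.

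A gene entered the tests when 2 or more libraries reached 1 FPKM, which 19895 did. The scale was log2(FPKM + 0.5), and the tool was limma 3.58.1 (R 4.3.3; eBayes with a trend). All 16 libraries were fitted jointly, with 8 residual degrees of freedom, and p-values were adjusted by Benjamini-Hochberg over all tested genes. Tables were made with Python 3.11.15, numpy 2.4.6 and pandas 2.3.3. Library depth (19181409 to 27165330 fragments) was computed from the steps of low FPKM values and transcript lengths, and 96.7% to 98.4% of low values lay within 0.15 of a whole fragment. The limma step was tested on simulated data. FPKM values are not counts, so no count test was used. Gene positions, microRNAs and upstream bases were taken from RefSeq TAIR10.1, which holds 32548 of the 33048 genes and all 84 members. Exon counts are those of the longest transcript.

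Named were members called in 2 or more mutants, the 3 called members with the largest change in each direction per mutant, the 5 highest in Col-0 and the 4 with the largest change in each role list that holds a called member. Exceptions are stated where they occur. The alternatives were pseudocounts of 0.1 and 1, no filter, quantile and median-ratio scaling, no fold minimum, no trend, a fit of only the genotypes compared, a replicate block and each library left out in turn.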

Additional observations from a re-analysis of the deposited data

Results flagged for a closer look

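The effects of 2 mutants or mutant classes differed in a direct test for 10 MYB genes, and each difference below is on the log2(FPKM + 0.5) scale with its limma adjusted p. Of all tested genes, 3.29% were higher and 0.89% lower in *clf-81* against *lhp1-3*. The shares were 5.38% and 1.32% for the double mutant against its single mutants, and 3.71% and 2.25% for the BPC against the Polycomb mutants. The share of all tested genes that differed in any of these tests was not counted. In *clf-81* against *lhp1-3*, the differences were 2.73 for *MYB75* (adjusted p = 0.0013), 2.38 for *MYB15* (0.014), 1.91 for *MYB44* (9.8e-07), 1.56 for *MYB90* (0.00078), 1.12 for *MYB29* (0.012) and 1.07 for *MYB95* (0.023).

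In *aipp2-1/paipp2-1* against the mean of its single mutants, the differences were 2.56 for *MYB15* (adjusted p = 0.0026), 1.84 for *MYB62* (4.8e-05) and 1.62 for *MYB51* (0.0032). In the mean of the BPC mutants (*cpl2-2*, *aipp3-1* and the double mutant) against the mean of *clf-81* and *lhp1-3*, they were 1.28 for *MYB49* (0.0015), 1.19 for *MYB51* (0.0017), 1.08 for *MYB20* (0.00015), -2.11 for *MYB75* (7.5e-05), -1.75 for *MYB44* (5.7e-09) and -1.36 for *MYB90* (1.7e-05).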

How the results depend on the processing

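Of 42 called gene and comparison pairs, 20 were called under every alternative, 0 reversed, and 74 of their 597 alternative values were no longer called. The cause of these changes was not tested. For the counts of members in this section, the share of all tested genes under the same alternative was not counted. These counts therefore show only how the members' calls moved, not whether MYB genes differ from other genes. In counts of called members, a pseudocount of 1 gave 3 higher in *aipp3-1*, 1 higher in *cpl2-2* and 1 lower in *clf-81*, and a pseudocount of 0.1 gave 1 lower in *aipp3-1*, 4 higher in *lhp1-3* and 11 between the BPC and Polycomb mutants. Quantile normalization gave 3 higher and 1 lower in *aipp3-1*, 1 higher in *cpl2-2* and 1 higher in *lhp1-3*, and median-ratio scaling 1 lower in *aipp3-1*. Quantile normalization moved the median of all tested genes to -0.04 in *aipp3-1* and -0.06 in *aipp2-1/paipp2-1*, against 0.07 and 0.05 as deposited. Fitting only the genotypes compared gave 3 higher in *aipp3-1* and 1 higher in *aipp2-1/paipp2-1*, with fewer libraries to estimate the spread. With no fold minimum, the counts were 8 higher and 1 lower in *aipp3-1*, 4 higher in *cpl2-2*, 11 higher and 3 lower in *aipp2-1/paipp2-1*, 5 lower in *clf-81*, and 6 higher and 1 lower in *lhp1-3*. They were then 10 between *clf-81* and *lhp1-3*, 10 between the double mutant and its single mutants and 24 between the BPC and Polycomb mutants.

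Leaving out each library in turn gave 2 to 3 higher in *aipp3-1*, 0 to 2 in *cpl2-2*, 4 to 13 in *aipp2-1/paipp2-1*, 1 to 2 lower in *clf-81* and 1 to 2 higher in *lhp1-3*. It gave 3 to 5 between *clf-81* and *lhp1-3*, 2 to 10 between the double mutant and its single mutants and 5 to 7 between the classes. The count of 13 came without *aipp2-1/paipp2-1* replicate 2, and without replicate 1 it was 5. The count of 0 came without Col-0 replicate 1.

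The replicate numbers did not pair the samples, with correlations of deviations between same-numbered mutant and Col-0 libraries of -0.22 to 0.06. A replicate block left every count as it was, with 5 higher in *aipp3-1*, 6 in the double mutant and 10 in *clf-81*, and changed no call by limma. With the numbers crossed, an alternative chosen after seeing the data, 5 were higher in *aipp3-1*, 2 in *cpl2-2*, 0 in *paipp2-1* and 2 in *lhp1-3*.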

Other observations

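Of the 31 genes written with an AtMYB or ATMYB prefix, 18 were tested. Of these, 1 each was called higher in *aipp3-1*, *cpl2-2*, *clf-81* and *lhp1-3*, against 3.14%, 2.71%, 5.98% and 2.8% of all tested genes. In *aipp2-1/paipp2-1* 2 were called higher, against 6.44% of all tested genes. *ATMYB2*, known from drought and salt responses, was called higher in *aipp3-1*, *cpl2-2* and *clf-81*, with log2 fold changes of 1.27, 1.51 and 1.69 (limma adjusted p = 0.027, 0.014 and 0.0020). In *aipp2-1/paipp2-1* the called genes were *AtMYB50* (1.20, limma adjusted p = 0.021) and *AtMYB74* (1.57, limma adjusted p = 0.045). *AtMYB50* had 11.36 and 4.62 FPKM there, against 3.28 and 2.56 FPKM in Col-0. *AtMYB74* had 12.83 and 2.34 FPKM, against 1.99 and 1.23 FPKM in Col-0. Both were higher in replicate 1, the library that stood apart, and their calls were not tested without it. In *lhp1-3* the called gene was *AtMYB10* (1.08, limma adjusted p = 0.0049), a regulator of the response to iron shortage. These genes were picked after their values were seen.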
